A study of Schizosaccharomyces pombe with 2 samples.

Results

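Introns in the untranslated regions of messenger RNAs are described here for fission yeast, *Schizosaccharomyces pombe*. They were taken from the authors' list of 222 introns outside their gene annotation, called added introns below. Members were all introns whose class named a 5′ or 3′ untranslated region (UTR) and no snoRNA, which gave 87 of the 222. The authors placed 45 of them in 5′ UTRs, in 45 genes, and 39 in 3′ UTRs, in 38 genes. The other 3 had an uncertain class, with 2 near a 5′ UTR and 1 in either a 5′ or a 3′ UTR.

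The cells were of strain 972 h- and lacked dbr1 (genotype delta-dbr1), whose product opens the branched lariat RNA that splicing leaves behind, so that excised introns persist as circles. All samples shared that deletion, so no cells with dbr1 were compared. Total RNA of 41 conditions was mixed into 1 pool, and its circular part was isolated by 2-dimensional electrophoresis, with a first gel of 7.5% acrylamide. A library was made from each of 2 runs, named short (second gel 15%) and long (20%), and the tables used here carry the short name. No value has a replicate and no condition can be told from another, so the sets are described by counts, medians and intervals, with no test.

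A UTR lies outside the coding sequence, so an intron there changes the length and content of the messenger RNA without changing the protein. Introns before the start codon can remove upstream start codons and other elements that act on translation. Introns after the stop codon can remove binding sites for proteins, and in many eukaryotes an intron far past the stop codon marks a messenger RNA for decay. Splicing in fission yeast uses short introns that begin with GT, hold a branch sequence close to the 3′ end and end with AG.

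All 87 members ran from GT to AG at the listed positions in the ASM294v3 assembly. The ends of the introns with most reads, and of the intron nearest the coding sequence in each set, are given from that assembly as the last 30 bases, 5′ to 3′ on the strand of the intron. They are shown because they hold the branch and 3′ splice signals compared further on. Capitals mark the closing AG and, where present, the branch motif nearest the end, which is the word CTAAC, the word CTAAT, the word CTGAC or the word CTGAT.
gmh6, 5′ UTR: attctgaacttatCTAACatcttagtttAG
ade7, 5′ UTR: ccaaaagCTAATtgtcttcaagtggaatAG
acs1, 5′ UTR: ccttccttactaatgtctgCTAATgtttAG
SPAC630.12, 5′ UTR: ttgaagtctttaCTAACaaggtttatctAG
gpi3, 5′ UTR: ttcaatagattgCTAACtttgtatgcttAG
elo1, 3′ UTR: tagttaCTAATctgtatcctatttcttcAG
crd1, 3′ UTR: caagtgcattatttttaCTAACtgtattAG
pof9, 3′ UTR: atttatctctatttttaCTAATtcctctAG
SPBP8B7.32, 3′ UTR: ttcactaCTAACaattcacctatgttacAG
SPBC16G5.06, 3′ UTR: atcttcatcaactattgattttatttatAG
In 9 of these 10 introns the last 30 bases held such a match, and SPBC16G5.06 had none in that stretch. The 5′ UTR introns shown closed with TAG, as did those of crd1, pof9 and SPBC16G5.06, and those of elo1 and SPBP8B7.32 closed with CAG. The acs1 stretch held a second ctaat, left in lower case.

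The first question was how many reads the UTR introns had, as a measure of circles recovered. A few introns held most of the reads of each set, and its leading pair stood far above the rest. The 3 highest of the 5′ set lay in gmh6, ade7 and acs1 and held 75.2% of its 26495 reads. Those of the 3′ set lay in elo1, crd1 and pof9 and held 70.5% of its 21497 reads. Outside these 6 introns no member reached 1000 reads.

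The intron with most reads in the 5′ set lay in SPBC1289.13c (gmh6), which encodes an alpha-1,2-galactosyltransferase of protein glycosylation. It had 13138 reads (95% Poisson interval 12914 to 13365; chromosome 2, 4409366 to 4409494, minus strand, 129 nt). The gene ade7 encodes an enzyme of purine synthesis, and its intron had 5543 reads (5398 to 5691; chromosome 2, 1156883 to 1157082, plus strand, 200 nt). In SPCC191.02c (acs1), the gene of an acetyl-CoA ligase, 1256 reads lay over an intron of 210 nt, the longest of the 87 (chromosome 3, 1710555 to 1710764, minus strand). None of these 3 hosts has an annotated intron in the reference annotation.

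The rest of the 10 highest 5′ UTR introns had 869 to 247 reads. SPAC630.12, a gene of a lipid phosphatase, had 869 reads (812 to 929; chromosome 1, 368114 to 368312, 199 nt). SPAC6F6.19, encoding a G-patch RNA-binding protein, had 416 reads. The F-box gene pof5, whose product is an adaptor of a ubiquitin ligase, had 403 reads over 190 nt. SPAC167.09 (pga1), for a subunit of an enzyme that adds mannose to the GPI anchor of cell-surface proteins, had 368 reads. All of the 10 highest lay above the third quartile of the set, 228 reads. The intron of SPBC1E8.05 (knh4) had 294 reads, that of the uncharacterized SPAC1952.06c had 262, and that of the centromere protein gene cnl2 had 247.

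At the low end of the 5′ set, 3 introns stood within 2 reads of the lowest count in the table, 50. The introns of SPAC3H1.10 (pcs2, phytochelatin synthesis) and of srb8, a Mediator subunit gene, each had 51 reads. The intron of tfa2, a subunit gene of the general transcription factor TFIIE, had 52. The sources used here do not say how the floor of 50 arose.

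In the 3′ set, SPAC1639.01c (elo1) encodes a fatty acid elongase, and its intron had 8197 reads (95% Poisson interval 8020 to 8376; chromosome 1, 251746 to 251862, minus strand, 117 nt). SPAC22A12.08c (crd1) encodes a cardiolipin synthase joined to a hydrolase, and its intron had 5928 reads (5778 to 6081; chromosome 1, 1170030 to 1170168, minus strand, 139 nt). The F-box gene pof9 followed with 1023 reads (961 to 1088; chromosome 2, 1873346 to 1873470, plus strand, 125 nt). The leading 2 hosts of the 3′ set act in lipid synthesis.

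The rest of the 10 highest 3′ UTR introns had 431 to 340 reads, a narrower range than the same ranks of the 5′ set. The uncharacterized SPBP8B7.32 was the only host with more than 1 member. Its introns had 431 reads (144 nt) and 239 reads (81 nt), and 813 nt lay between them. The RNA-binding protein gene cip1 had 429 reads. SPAC4H3.08, a 3-hydroxyacyl-CoA dehydrogenase gene, had 403 reads, and the nearby SPAC4H3.06 had 370. The quinone reductase gene obr1 had 352 reads, and tfg2, a subunit gene of the transcription factor TFIIF, had 342. The gene urm1, for a ubiquitin-like protein that also carries sulfur for the modification of transfer RNA, had 340.

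The lowest 3′ UTR introns were in exo1, a DNA repair exonuclease gene, and in the ubiquitin ligase gene SPBP4H10.07, with 50 reads each. The intron of rpb7, an RNA polymerase II subunit gene, had 51 reads. The lows of both sets sat at the floor of the table.

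Between these ends the 2 sets overlapped almost fully. The median was 108 reads in 5′ UTR introns (quartiles 69 and 228; 95% interval of the median 79 to 177; n = 45) and 139 reads in 3′ UTR introns (71.5 and 332; 86 to 239; n = 39). The difference of median log10 reads, 5′ minus 3′, was -0.11 (interval -0.38 to 0.19), and each median lay inside the interval of the other. Above the median of all 222 added introns, 117 reads, lay 21 of 45 introns of the 5′ set and 25 of 39 of the 3′ set. The other 135 added introns had a median of 113 reads, close to both. Annotated introns had a median of 438 reads, and of 1183 among those with at least 50 reads.

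**Figure D1:**
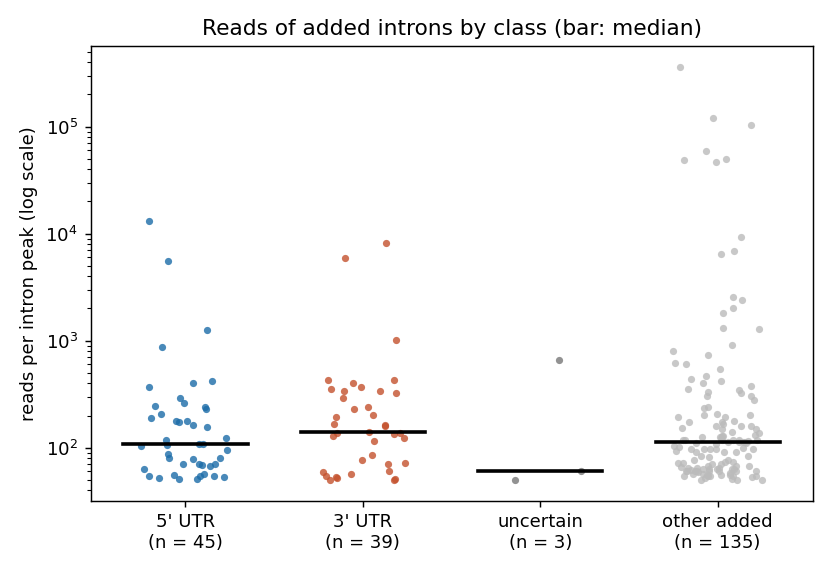
Reads per intron peak (log scale) for each added intron, by class, with the median as a bar. The 5′ and 3′ UTR sets spread over the same range with medians of 108 and 139 reads, and the highest counts of the table, up to 364089, lie in other classes.

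The 3 introns of uncertain class had 663, 61 and 50 reads. That of 663 reads was listed beside spf38, a U5 snRNP gene, on the minus strand, whereas the reference annotation has spf38 on the plus strand. On the strand of the intron it overlapped the non-coding RNA gene SPNCRNA.6591. That of 61 reads was listed with SPAC11D3.01c and SPAC11D3.02c, and in the reference it lay 160 nt before the start codon of SPAC11D3.01c and 415 nt after the stop codon of SPAC11D3.02c. That of 50 reads lay 406 nt before the start codon of SPAC13G7.10 (teb1), a gene of a Myb-type DNA-binding protein.

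Length was compared next. The 5′ set reached greater lengths than the 3′ set, 210 nt against 178 nt. The median was 144 nt in the 5′ set (quartiles 117 and 168; interval of the median 126 to 160) and 127 nt in the 3′ set (106 and 143; 118 to 136), a difference of 17 nt (interval -3.13 to 35.4). Of the 5′ set 20 of 45 introns measured 150 nt or more (44.4%), against 6 of 39 in the 3′ set (15.4%). The share was 40.7% among the other added introns, whose median was 143 nt, and 31.8% among annotated introns, whose median was 118 nt. By this share the 5′ set lay near the other added introns and the 3′ set below both. By the median, however, both sets lay above annotated introns. Below 100 nt lay 4 introns of the 5′ set (8.89%) and 9 of the 3′ set (23.1%). Of the other added introns 14.1% lay below 100 nt, and of annotated introns 32.3%. The interval of the difference of medians included 0, and the gap between the sets in the share of 150 nt or more was not tested.

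The longest 5′ UTR introns were those of acs1 (210 nt), srb8 (204 nt) and ade7 (200 nt). The shortest were in mss1, a gene of a GTPase (87 nt, 71 reads), in knh4 (88 nt) and in SPAC2F3.05c, a reductase gene (95 nt, 205 reads). The longest 3′ UTR introns lay in the deubiquitinase gene otu1 (178 nt, 137 reads), in SPCC162.06c (vps60, vacuolar sorting; 174 nt, 168 reads) and in the SNARE gene tlg1 (163 nt, 204 reads). The shortest were the 81-nt intron of SPBP8B7.32, that of SPAC4H3.06 (85 nt) and that of rpb7 (86 nt). Of all members, 85 of 87 fell in the range of 80 to 200 nt, and the other 2, acs1 and srb8, lay just above it. Across introns of 1 library, reads and length gave Spearman's rho of 0.31 in the 5′ set (n = 45) and 0.24 in the 3′ set (n = 39), as a description only.

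**Figure D2:**
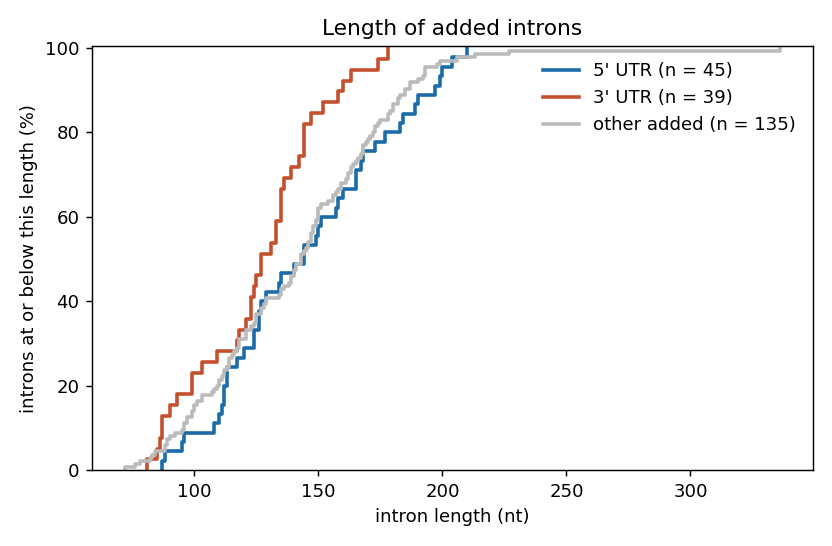
Cumulative share of introns (%) against intron length (nt) for the 5′ UTR set, the 3′ UTR set and the other added introns. The 3′ UTR curve ends at 178 nt, the 5′ UTR curve ends at 210 nt and that of the other added introns at 336 nt.

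The place of each intron was then read from the reference annotation. All 45 introns of the 5′ set lay before the start codon of their host on the same strand. Of the 39 introns of the 3′ set, 36 lay after the stop codon. The median distance from intron to coding sequence was 177 nt in the 5′ set (quartiles 69 and 333) and 402.5 nt in the 3′ set (151 and 670; n = 36). No intron of the reference annotation lay between a member and the coding sequence. Of the authors' annotated introns, intron 1 of SPBC8D2.02c (vps68; 1362339 to 1362460) lay between the member and the start codon of the reference. The annotated transcript of the host enclosed 18 of 45 introns of the 5′ set (40.0%) and 28 of 39 of the 3′ set (71.8%). The others were not enclosed by the host transcript as annotated there. Some of these overlapped a non-coding RNA gene on the same strand, such as those of obr1 (SPNCRNA.792) and srb8 (SPNCRNA.3393). So did some enclosed introns, such as that of gpi3 (SPNCRNA.5111). The enclosed intron of alg14 in the 5′ set overlapped another coding gene on the same strand, pxa1.

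Several introns nearly touched the coding sequence. The intron of gpi3, which encodes an enzyme of GPI anchor synthesis, ended 1 nt before the start codon and had 162 reads over 197 nt. Those of tfa2 and cnl2 ended 3 nt and 7 nt before it. In the 3′ set the intron of SPBC16G5.06 (134 reads) began 3 nt after the stop codon. That of rrp8, an rRNA methyltransferase gene, began 5 nt after it (193 reads), and those of urm1 (340 reads) and of vma11, a vacuolar ATPase gene (324 reads), 7 nt after it. At 10 nt or less lay 3 introns of the 5′ set and 4 of the 3′ set.

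Other members lay far out. More than 500 nt from the coding sequence were 7 of 45 introns of the 5′ set and 15 of 36 of the 3′ set. The farthest of the 5′ set was that of the protein kinase gene ppk18, 1393 nt before the start codon with 81 reads. In the 3′ set the introns of SPBP8B7.32 lay 1498 and 2455 nt after the stop codon, those of SPAC4H3.16 and tfg2 1695 and 1688 nt, and that of otu1 1546 nt. SPCC1919.05 (ski3), esf2 and wsc1, which encode a Ski complex subunit, a U3 snoRNP-associated protein and a transmembrane receptor, had introns 1209, 1144 and 1103 nt after it. The host's annotated transcript enclosed both SPBP8B7.32 introns and those of SPAC4H3.16, tfg2, ski3, esf2 and wsc1, and did not enclose those of ppk18 and otu1.

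**Figure D3:**
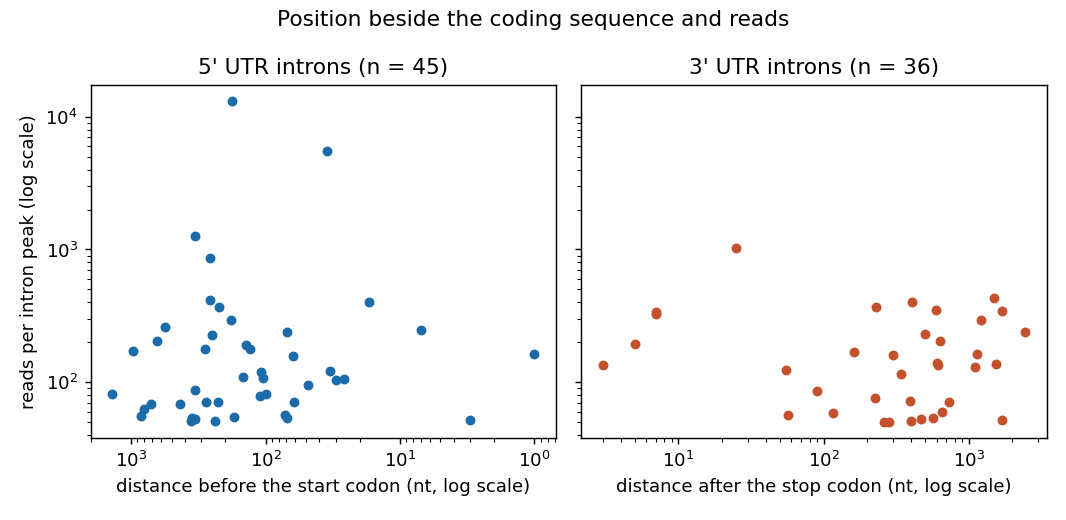
Reads per intron peak against the distance from intron to coding sequence (nt), both on log scales, for 5′ UTR introns (left, distance before the start codon) and for the 36 introns of the 3′ set that lie after the stop codon (right). Introns with few reads occur at near and far positions, such as 52 reads at 3 nt and 81 reads at 1393 nt on the left, and 57 reads at 57 nt and 52 reads at 1695 nt on the right.

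The reference placed 3 introns of the 3′ set elsewhere, among them the leading pair. The intron of elo1 lay inside the last coding exon of the reference model (251726 to 252337), and its 3′ end lay 20 nt from the stop-codon end of that exon. Its length of 117 nt equals 39 codons. The intron of crd1 was the only member that matched an annotated intron exactly, 1 of 87 (1.15%, Wilson 95% interval 0.203 to 6.23). The reference lists 2 transcripts of crd1. The longer, with 6 introns, includes this intron and encodes the fusion protein of hydrolase and cardiolipin synthase. The shorter, with 4 introns, encodes the hydrolase part alone, and the intron began 536 nt after its stop codon. The intron of cip1, classed as 3′ UTR, lay 845 nt before the start codon of cip1 as annotated and overlapped the non-coding RNA gene SPNCRNA.1684 on the same strand.

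Few 5′ UTR introns but many 3′ UTR introns lay over a coding gene on the other strand. This was so for 3 of 45 introns of the 5′ set (6.67%, Wilson 95% interval 2.29 to 17.9), against 18 of 39 of the 3′ set (46.2%, 31.6 to 61.4). In the 5′ set the introns were those of pga1 over ptb1, of SPAC1B3.20 over hrd302 and of trx1, a thioredoxin gene, over SPAC7D4.08. Of the 18 introns of the 3′ set, 14 lay in pairs of genes whose 3′ ends face each other, and 11 reached the span of the partner's coding sequence. The intron of urm1 lay over dbl5, a ubiquitin ligase gene, and that of sif2 over hap2, an Ino80 complex gene. The intron of SPBC9B6.03 (pib2) lay over tuf1, the gene of a mitochondrial translation elongation factor, and that of otu1 over spn5, a meiotic septin gene. That of the proteasome gene pre8 lay over wss2, a metalloprotease gene, and that of exo1 over ely5, a nuclear pore gene.

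These shares have to be read beside the layout of the genome. Of 5113 coding genes, 20.1% had a coding gene on the other strand within the 500 nt before the start codon, and 48.4% within the 500 nt after the stop codon. The 5′ set, at 6.67%, lay below the value for its flank, and the 3′ set, at 46.2%, lay near the value for its own. Windows of 500 nt are longer than the introns, and 15 of 36 introns of the 3′ set lay farther out than that, so the shares are set side by side as a description. Of the other added introns 40.7% (55 of 135) overlapped such a gene, and of annotated introns 9.91%. Those 135 include the authors' antisense class of 58 introns, which held 50 of the 55. The 18 introns over such a gene had a median of 136.5 reads, up to 340, and the other 21 of the 3′ set had a median of 239 reads, up to 8197. Within the antisense class the overlap stood at 86.2%, so the value of the other added introns rests mostly on that class. The strand of each intron is the one the authors give.

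**Figure D4:**
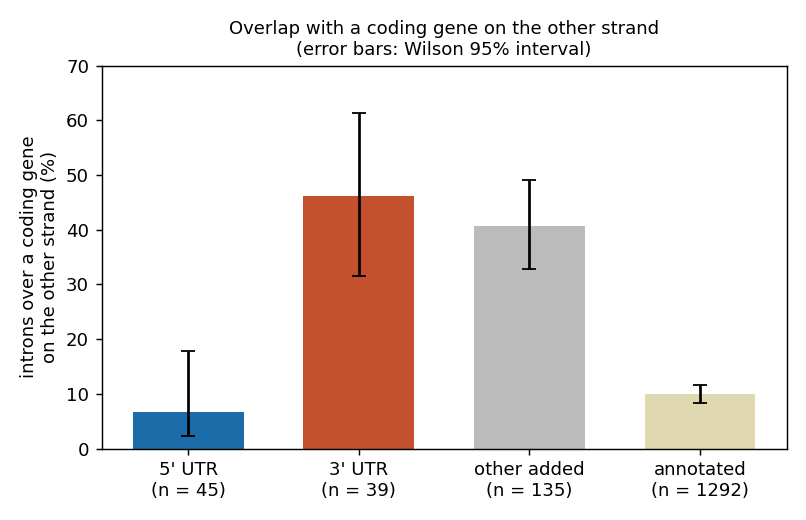
Share of introns (%) that overlap the annotated span of a coding gene on the other strand, with Wilson 95% intervals, for the 5′ UTR set, the 3′ UTR set, the other added introns and the annotated introns. The 5′ set stands at 6.67% and the 3′ set at 46.2%. The other added introns include the authors' antisense class, which held 50 of their 55 overlapping introns.

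The splice signals differed between the sets in their letters. Of the 45 introns of the 5′ set, 17 opened with GTAAGT and 7 with GTATGT. Of the 39 introns of the 3′ set, 7 opened with GTAAGT and 2 with GTATGT, and GTAAGA was as frequent as GTAAGT with 7. GTAAGT opened 37.4% of annotated introns and GTATGT 24.4%. The gmh6 intron opened with gttagt and the elo1 intron with gtaact, each found in 1 member only, although these 2 had the most reads of their sets.

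The 3′ splice site ended with TAG in 33 of 45 introns of the 5′ set (73.3%, Wilson 95% interval 59.0 to 84.0) and in 17 of 39 of the 3′ set (43.6%, 29.3 to 59.0). CAG closed 7 introns of the 5′ set (15.6%, 7.75 to 28.8) and 17 of the 3′ set (43.6%, 29.3 to 59.0). Annotated introns had 72.3% TAG and 18.5% CAG, close to the 5′ set, and the other added introns had 59.3% and 23.0%. GC content was 32.4% at the median of the 5′ set and 35.5% in the 3′ set, 33.7% in the other added introns and 30.2% in annotated introns.

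Any of these 4 branch motifs was found on the strand of the intron, in its last 40 nt, in 61 of 87 members (70.1%, Wilson 95% interval 59.8 to 78.7). It was found in 29 of 45 introns of the 5′ set (64.4%, 49.8 to 76.8) and 29 of 39 of the 3′ set (74.4%, 58.9 to 85.4), against 1054 of 1292 annotated introns (81.6%, 79.4 to 83.6). Among the other added introns the share was 64.4%, with 87 of 135. The median stretch from the match to the intron end was 10 nt in the 5′ set and 9 nt in the 3′ set. The match nearest the end was CTAAC in 15 and CTAAT in 9 introns of the 5′ set, and each in 14 introns of the 3′ set. Introns without a match included those of pof5 and pga1 in the 5′ set and of tfg2 and urm1 in the 3′ set. A match is one of letters and not a mapped branch.

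Introns before the start codon could hold upstream start codons. At least 1 ATG lay in 37 of 45 introns of the 5′ set (82.2%) and in 30 of 39 of the 3′ set (76.9%), against 91.1% of the other added introns and 90.4% of annotated introns. Per 100 nt there were 1.56 ATG in the 5′ set, 1.39 in the 3′ set and 1.96 in annotated introns. The pga1 intron held 6, the most in the 5′ set, and the ade7 intron held 5. The tfa2 and ssn6 introns held none.

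The hosts were then set beside the annotated introns of the short run. Of the 45 hosts of the 5′ set, 9 had an intron in that table (20.0%, Wilson 95% interval 10.9 to 33.8), and of the 38 hosts of the 3′ set 8 had one (21.1%, 11.1 to 36.3). Among all coding genes of the reference the share was 20.7%. With teb1, 18 of 87 hosts had a listed intron. In the reference annotation, 43 of the 87 hosts (49.4%) have an intron, close to the 48.3% of all coding genes. The other 44 have none, although 1 of them, SPBP8B7.32, had an intron in the authors' table. The 87 hosts have 100 annotated introns there, of which 25 measure 80 to 200 nt, and the authors' table listed 26 introns for them, 23 within that range. Intron 1 of SPBP8B7.32 and intron 1 of vps68 carried the host's name but lay outside the host gene as annotated in the reference.

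In 8 of 9 hosts of the 5′ set the added intron had fewer reads than the highest annotated intron of the same gene. As a ratio, the largest gaps were in SPBC8D2.02c (vps68, vacuolar sorting), with 68 reads in the UTR and 13568 in annotated intron 3, and in rfc3, a replication factor C subunit gene, with 95 reads in the UTR and 12190 in intron 4. SPAC22H10.04 (ppa3), a protein phosphatase 2A gene, had the largest gap in reads, with 228 in the UTR and 21973 in intron 2. The centromere protein gene cnp3 had 179 reads in the UTR, 1776 in intron 2 and 1295 in intron 3. In SPAC6F6.19 the counts were close, 416 against 518, as in ppk18 with 81 against 87. The exception was SPCC1442.17c (ist1), with 54 reads against 17. SPBP35G2.04c had 241 against 1018 and zwf1, the glucose-6-phosphate dehydrogenase gene of the pentose phosphate pathway, had 57 against 199.

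Among hosts of the 3′ set the added intron was above the highest annotated intron in 5 of 8 hosts. These include elo1 and crd1, whose added introns the reference places within the span of coding sequence. They also include SPBP8B7.32, whose annotated intron lies outside the host gene of the reference. The elo1 intron had 8197 reads against 57 in annotated intron 1, which is 837 nt long. The crd1 intron had 5928 reads against 11 in intron 3. The tlg1 intron had 204 against 26, that of SPBP8B7.32 had 431 against 219, and that of urm1 had 340 against 220. In the other hosts it was below. The pre8 intron had 53 reads against 5495 in intron 3 and 3336 in intron 1, the sif2 intron 161 against 3915 in intron 4, and the intron of ppk34 (ckk2), a kinase kinase gene, 57 against 1702 in intron 2. The added table starts at 50 reads and the annotated table at 5, so hosts whose UTR intron had fewer than 50 reads are not among these pairs.

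**Figure D5:**
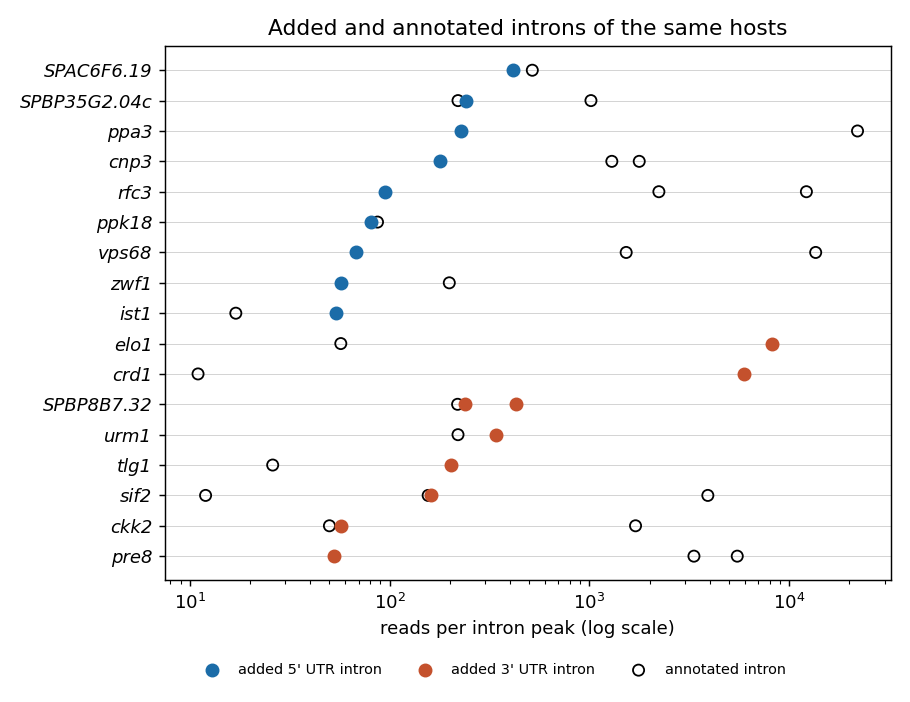
Reads per intron peak (log scale) for the added UTR introns (filled) and the annotated introns (open) of the 17 hosts with both, the 5′ set above the 3′ set. The annotated intron with most reads lies right of the added intron in 8 of 9 hosts of the 5′ set and in 3 of 8 hosts of the 3′ set. The reference places the added introns of elo1 and crd1 within the span of coding sequence.

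Branch reads were listed for 19 annotated introns of 14 hosts, 160 reads in all. Among these hosts, cnl2 and tfg2 had 1 branch read each but no intron among the annotated introns with peak reads. Intron 2 of ppa3 had 36 branch reads, led by the sequence TGCTAAC with a listed distance of 9 nt. Intron 1 of SPBP35G2.04c had 24 and intron 1 of pre8 had 21, both with a leading TACTAAC. No UTR intron has a branch read in that table, which lists annotated introns.

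By the words of the product text in the reference, metabolism was the largest named class of hosts, with 11 hosts in the 5′ set and 6 in the 3′ set. With 1 host of an uncertain member it made up 20.7% of the 87 hosts, against 12.3% of all coding genes. It held gmh6, ade7, pga1, gpi3 and zwf1 in the 5′ set and crd1, obr1, SPAC4H3.08 and cox5, a cytochrome oxidase subunit gene, in the 3′ set. Ubiquitin and protein turnover had 3 hosts in the 5′ set, namely pof5, rik1 (108 reads) and the peptidase gene sxa2 (105 reads). The 3′ set had 5, namely pof9, urm1, otu1, pre8 and SPBP4H10.07. The class made up 9.20% of the hosts and 4.71% of coding genes.

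RNA processing and translation had 4 hosts in the 5′ set and 3 in the 3′ set, 8.05% of the hosts against 13.5% of coding genes. The members were SPAC6F6.19, tsf1 (elongation factor EF-Ts, 177 reads), the mitochondrial ribosomal protein gene mrpl19 and msm1 in the 5′ set, and cip1, rrp8 and rpb7 in the 3′ set. Transcription and chromatin had 4 hosts in the 5′ set (ssn6 with 173 reads, prz1 with 63, tfa2 and srb8) and 3 in the 3′ set (tfg2, pib2 with 139 reads and the SAGA subunit gene spt3 with 86). Of these, ssn6 encodes a corepressor and prz1 a transcription factor that answers to calcineurin. The class made up 8.05% of the hosts and 6.14% of coding genes.

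Kinases and phosphatases had 4 hosts in the 5′ set, namely SPAC630.12, ppa3, byr2 (a kinase of the mating pathway, 119 reads) and ppk18. Those of the 3′ set were SPAC823.11 (sgp1, 116 reads) and ppk34. Kinases and phosphatases made up 6.90% of the hosts, near the 6.47% of coding genes. Membrane transport had 2 hosts, both in the 5′ set, with 122 reads at caf5 and 55 at SPAC1399.02. It made up 2.3% of the hosts and 4.2% of coding genes. Cell wall, traffic and cytoskeleton had mss1 in the 5′ set, and SPCC306.02c (yip3, 124 reads) and the gamma-tubulin complex gene alp4 (54 reads) in the 3′ set. That class made up 3.45% of the hosts and 4.36% of coding genes. The last class, of other or unnamed products, took 36 hosts (41.4%, against 48.3% of coding genes), among them acs1, elo1 and vma11. The classes rest on single words of the product text. Thus pib2 fell under transcription by its zinc finger and mss1 under traffic by its GTPase. The polymerase gene rpb7 fell under RNA processing and translation by the word RNA.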

How the data were processed

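Per the file headers, the authors deposited read counts, as whole numbers for each intron peak, for added and annotated introns, and a table of branch sequences with their reads. The counts carry no normalization. The submitters' processing notes name Bowtie 0.12.3 and SAMtools. Which peak caller, annotation and genome build served is not stated there. After removal of repeated lines, 1292 of 1314 annotated introns were kept. All 1292 ran from GT to AG in the NCBI RefSeq assembly ASM294v3 and 1259 matched an intron of it exactly, so positions were read in that assembly.

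The 48766 reads of the members are a sum over listed introns and not a library depth. Hosts were matched by name, older name or locus tag, and their annotated introns by name or by place inside the host. Python 3.11.15 ran matplotlib 3.10.9, Biopython 1.88, scipy 1.17.1, pandas 2.3.3 and numpy 2.4.6. Poisson, Wilson and order-statistic intervals have a level of 95%. Poisson intervals cover the counting error of reads alone, and PCR copies are not independent molecules. Wilson and order-statistic intervals treat the introns or genes of a set as a random sample and hold no error of the library. The interval of a difference joined those of its 2 medians by the root of summed squares. The motif search and the order-statistic interval of a median were tested on simulated data. The Poisson and Wilson intervals and the interval of a difference were not.

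Members, classes and comparisons were chosen with earlier results of these data known. In each set the named introns were the 10 highest, 3 lowest, 3 longest and 3 shortest, hosts with more than 1 member, and the 2 highest of each product class, and over both sets the 6 hosts with most annotated reads. Other introns, the closing bases, ATG counts and overlaps with genes on the other strand were chosen after their values were seen. The skipped-exon table was not used here. Alternatives changed the read minimum, introns per gene, length range, scale, class source, reference tolerance and motif, or left out the highest intron.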

Additional observations from a re-analysis of the deposited data

How the results depend on the processing

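With at least 100 reads required, the median of the 5′ set was 205 reads, outside its interval of 79 to 177, while that of the 3′ set was 235. Requiring more reads raises a median by construction. Divided by length, the medians were 0.822 reads per nt in the 5′ set and 1.06 in the 3′ set. With the looser motif CTNAN, 85.1% of members had a match, against 85.2% of the other added introns and 90.2% of annotated introns. Limiting the sets to introns whose class names 1 UTR alone left every value as it was, since the 3 uncertain introns are in neither set. The other alternatives gave values inside the intervals of the values reported. The difference of median reads kept its sign throughout, from -0.113 to -0.0592 on the log10 scale, and that of median length from 13 to 17 nt. No paired analysis was possible because the runs hold 1 library each and no table used here divides its counts between them. The floor of 50 reads in the added table limits what can be said of weakly recovered UTR introns. Only introns of up to 210 nt appear among the members, and gel recovery at other lengths was not measured.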

Other observations

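On the plus strand lay 20 of 45 introns of the 5′ set (44.4%, Wilson 95% interval 30.9 to 58.8) and 28 of 39 of the 3′ set (71.8%, 56.2 to 83.5). In the other added introns it was 69 of 135 (51.1%) and in annotated introns 641 of 1292 (49.6%). This was noticed in the data and has no test.

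Some members were close neighbours. On chromosome 1 the 3′ UTR introns of SPAC4H3.16, SPAC4H3.06 and SPAC4H3.08 followed each other with gaps of 4299 and 4531 nt, and the first of these lay on the minus strand. The 5′ UTR introns of SPAC27E2.14 and SPAC27E2.06c lay 5168 nt apart, and those of SPAC1B3.06c and SPAC1B3.20 lay 9214 nt apart. On chromosome 2 the intron near spf38 (663 reads) lay 5715 nt from that of gmh6 (13138 reads), on the same strand.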
